A study of Mus musculus with 6 samples.

Results

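Glycolysis and hypoxia-responsive genes were examined in primary mouse adipocytes cultured from the inguinal fat pad, which is subcutaneous white fat, after exposure to kynurenic acid. The set held 33 genes: the enzymes of glycolysis from hexokinase to lactate dehydrogenase, the glucose and lactate carriers, the bifunctional PFKFB regulators, the hypoxia-inducible factors with their sensors, and 4 genes known to respond to low oxygen. A gene was taken where the array annotation gave its symbol. Where a symbol had several transcript clusters (the probe groups that stand for a transcript), the brightest cluster with gene-specific probes (annotated as cross-hybridisation type 1) was used. A cluster was found for 32 of the 33, all of them type 1, among 27365 genes measured. Fully differentiated cells received 50 µM kynurenic acid, a product of tryptophan breakdown, or PBS as the control, and RNA was collected after 12 h, with 3 arrays in each group. No strain, sex or age of the animals is given in the labels, and the titles call the replicates technical. Nothing says that the arrays came from separate cultures or animals, so p-values speak of the variation among these 6 arrays alone, and that may be technical.

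Glycolysis splits glucose into pyruvate and yields ATP without oxygen, and lactate dehydrogenase turns pyruvate into lactate when oxygen or mitochondrial capacity is short. In low oxygen the prolyl hydroxylases Egln1 and Egln3 no longer mark the factors Hif1a and Epas1 (HIF-2α) for breakdown, and these factors then raise transcription of glycolytic enzymes, carriers, Vegfa, Bnip3, Ankrd37 and Adm. Adipocytes use glycolysis to make the glycerol backbone and acetyl units of stored fat, and they release lactate.

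All values are log2 units of RMA, the authors' array normalization, and every change is kynurenic acid minus PBS. The 10 adipocyte markers (such as Adipoq, Fabp4 and Plin1) read above the mean of 23 antigenomic background probe sets (sequences absent from the mouse genome) on every array, with list means of 10.30 to 10.36. The 8 macrophage markers were also above it on every array, with list means of 7.43 to 7.75 with PBS and 7.38 to 7.65 with kynurenic acid. Of 7 preadipocyte and fibroblast markers 6 to 7 were above it, with list means of 7.78 to 7.80 with PBS and 7.64 to 7.77 with kynurenic acid and with Dcn at 11.14 and 10.98. Of these, 0 passed limma over all genes and 1 (Lum) had an unadjusted p below 0.05, at 4.10 and 3.77 near background. Of 8 endothelial markers 3 to 6 were above it, and of 8 skeletal muscle markers 4 to 5. Any pair of arrays correlated across genes (which are no independent replicates) at 0.992 to 0.996. Fewer cells of a type and less RNA per cell cannot be told apart in such bulk samples.

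Transcripts of glycolysis and of the hypoxia response differed little between kynurenic acid and PBS. Of the 32 genes, 0 passed limma after Benjamini-Hochberg adjustment over all genes (threshold 0.05), where 0% of all 27365 genes passed, and the smallest adjusted p among them was 0.502. The measured changes ran from -0.22 for Pfkfb1 to 0.24 for Epas1 on the log2 scale, and none of the 32 reached 1.5-fold. The 95% interval lay inside 1.5-fold in both directions for 31 of the 32 genes. The exception was Eno1, whose interval ended at 0.59 log2. Only 17 of the 32 read above the highest background probe set on all 6 arrays, and the 31 include the Gapdh cluster near background. Genes above that probe set on 0 arrays included Aldoa, Eno1, Gapdh and Ankrd37, and Ldha was above it on 1. Interval half-widths were 0.16 to 0.51, with a median of 0.19.

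At an unadjusted limma p below 0.05 stood 2 of the 32 genes (6.25%), against 9.69% of all genes. For 5 of the 32 (15.6%) the ranges of the groups did not overlap, against 14.7% of all genes, with 1 higher (7.14% of all genes) and 4 lower (7.58%). Both shares are near those of the whole table. Log2 changes were below 0 for 20 genes and above 0 for 12, with a median of -0.038, while all genes had a median of 0.0067 and 47.1% below 0. The number below 0 was 23 after each array was centred on its median, where 16065 of all 27365 genes were below 0. After cyclic loess it was 18, against 13600 of 27365. Of the 16427 genes at or above the 40th percentile of mean level, which include all 32, 8842 were below 0, with a median of -0.013. The median absolute change was 0.077 for the set and 0.087 for all genes.

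**Figure D1:**
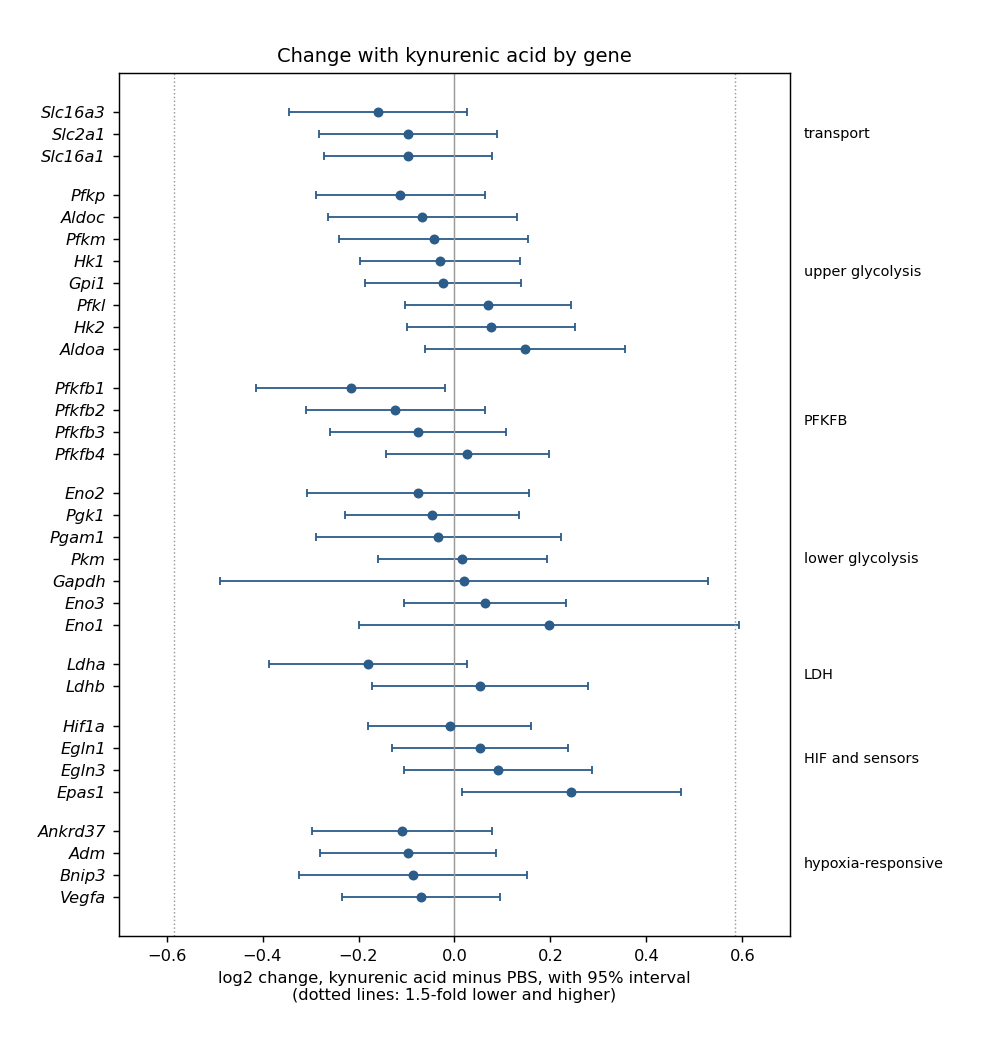
Log2 change (kynurenic acid minus PBS) of each of the 32 genes with its 95% limma interval, grouped by role; dotted lines mark 1.5-fold. Intervals of 30 genes include 0; those of Pfkfb1 (below 0) and Epas1 (above 0) do not, and neither gene passed after adjustment.

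Carriers of glucose and lactate were measured by 3 genes, all with a change below 0. Slc2a1, the basal glucose transporter GLUT1, read 9.25, 9.19 and 9.17 with PBS and 9.15, 9.18 and 8.99 after kynurenic acid (arrays 1, 2 and 3 in each group). Its highest kynurenic acid array lay inside the PBS range, and the change was -0.097 (SE 0.082, limma adjusted p = 0.714). Slc16a3, the lactate exporter MCT4, lies on chromosome 11 at 120948480 to 120960868 (mm10, plus strand). It averaged 7.77 ± 0.10 in PBS and 7.61 ± 0.035 after kynurenic acid (SD, n = 3 each), and all 3 kynurenic acid arrays were below all PBS arrays. The change of -0.16 had an interval from -0.35 to 0.026 and did not pass (limma adjusted p = 0.557). Slc16a1, the two-way monocarboxylate carrier MCT1, also had groups without overlap, at 9.25 ± 0.038 and 9.16 ± 0.075 (SD, n = 3 each), with a change of -0.097 (limma adjusted p = 0.697). A pair of dimmer clusters under the symbol Slc2a1, with values identical to each other and probes that match other transcripts too, gave -0.077.

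Upper glycolysis genes had changes on both sides of 0, from -0.11 for Pfkp to 0.15 for Aldoa. Hk2, the insulin-regulated hexokinase that traps glucose in the cell, read 8.70, 8.54 and 8.62 with PBS and 8.67, 8.70 and 8.72 after kynurenic acid. The kynurenic acid arrays sat near the highest PBS array, and the change was 0.077 with an interval from -0.099 to 0.25. Pfkp, the platelet-type phosphofructokinase that adds the committing phosphate, read 9.72, 9.66 and 9.61 with PBS and 9.49, 9.62 and 9.54 after kynurenic acid. Only its second kynurenic acid array reached into the PBS range, and the change was -0.11 (SE 0.078, limma adjusted p = 0.648). Pfkl, the liver-type isozyme, had 0.070 and Pfkm, the muscle-type isozyme, -0.043, so the 3 phosphofructokinase genes did not share a direction. Aldoa, the main aldolase, measured 6.58 ± 0.16 and 6.73 ± 0.012 (SD, n = 3 each), with a change of 0.15 that did not pass (limma adjusted p = 0.619). Its PBS arrays read 6.73, 6.42 and 6.59 and spanned all but 1 of the kynurenic acid values of 6.72, 6.72 and 6.74. The brain-type aldolase gene Aldoc had -0.067, the hexokinase Hk1 -0.030 and the glucose phosphate isomerase Gpi1 -0.023.

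No cluster carried the symbol Tpi1, the triosephosphate isomerase gene. On the minus strand of chromosome 6, a cluster of 23 probes annotated as LOC100044508 starts at 124810586 and ends at 124814296. RefSeq places Tpi1 (GRCm38.p6) from 124810586 to 124814158. This cluster read 10.73, 10.68 and 10.68 with PBS and 10.58, 10.68 and 10.64 after kynurenic acid, a change of -0.063 (limma adjusted p = 0.797). It was not counted among the 32.

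The PFKFB genes encode enzymes that make or remove fructose 2,6-bisphosphate, the strongest activator of phosphofructokinase. Pfkfb1, the isozyme known from liver and muscle, lies on chromosome X at 150588229 to 150643878 (plus strand). It read 7.77, 7.89 and 7.80 with PBS and 7.58, 7.73 and 7.50 after kynurenic acid. All 3 kynurenic acid arrays were below all PBS arrays; the second came closest to them. The change was -0.22 (SE 0.087, interval -0.41 to -0.020), with an unadjusted limma p of 0.0342 and an adjusted p of 0.502. The authors' deposited table gives a p of 0.0448 and a q of 0.526 for this cluster. After median centring the change was -0.25 (interval -0.46 to -0.043) and after cyclic loess -0.16 (interval -0.35 to 0.017). Pfkfb2, the heart-type isozyme, had -0.12 and Pfkfb3, the inducible isozyme with high kinase activity, -0.077. Pfkfb4 had 0.027, which turned to -0.01 after median centring.

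Lower glycolysis genes had a median change of 0.017, with 4 above 0 and 3 below, a direction that depended on the processing. The median was -0.033 with the brightest cluster per symbol and -0.020 after median centring. It was also below 0 without PBS array 2 (-0.035), kynurenic acid array 1 (-0.005) or kynurenic acid array 2 (-0.060), and 1 of the 4 above 0 was the Gapdh cluster near background. Pgk1, the phosphoglycerate kinase and a standard HIF target, read 11.55, 11.53 and 11.44 with PBS and 11.39, 11.55 and 11.44 after kynurenic acid. Kynurenic acid array 1 was below the PBS range and the other two lay at its ends, and the change was -0.047 (interval -0.23 to 0.14). Pkm, the pyruvate kinase of most tissues, measured 11.67 ± 0.052 and 11.69 ± 0.067 (SD, n = 3 each). Eno1, the ubiquitous enolase, had the widest spread apart from Gapdh. It read 5.61, 5.35 and 5.25 with PBS and 5.35, 5.42 and 6.03 after kynurenic acid, a change of 0.20 (SE 0.18, limma adjusted p = 0.728). Without kynurenic acid array 3 that change was -0.018, so its direction rested on 1 array. Eno2, the neuronal enolase, had -0.077 and Eno3, the muscle enolase, 0.063. Pgam1, a phosphoglycerate mutase, had -0.033 in the 8-probe cluster that covers its RefSeq interval. Another type 1 cluster under that symbol, of 28 probes at 41933472 to 41944103 on chromosome 19, gave -0.12.

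Gapdh, the glyceraldehyde phosphate dehydrogenase gene often taken as a reference, differed in level and sign of change between its clusters. The 12 specific probes at its locus on chromosome 6, at 125161854 to 125166467, read 4.64, 3.72 and 3.85 with PBS and 3.84, 4.34 and 4.09 after kynurenic acid. These values are close to the array means of the antigenomic background sets, 3.58 to 3.91, and kynurenic acid array 1 was below its own background mean. The change of 0.020 (SE 0.23) is therefore not measured well above background. A brighter cluster (27 probes, not specific to 1 transcript), placed elsewhere on chromosome 6 at 83874199 to 83875427, read 12.46 ± 0.015 and 12.43 ± 0.010 (SD, n = 3 each), a change of -0.033. Another such cluster, of 9 probes on chromosome Y, read 8.61 with PBS and 8.57 after kynurenic acid, a change of -0.040. The pair of clusters well above background thus had changes below 0, and the one near background a change above 0.

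**Figure D2:**
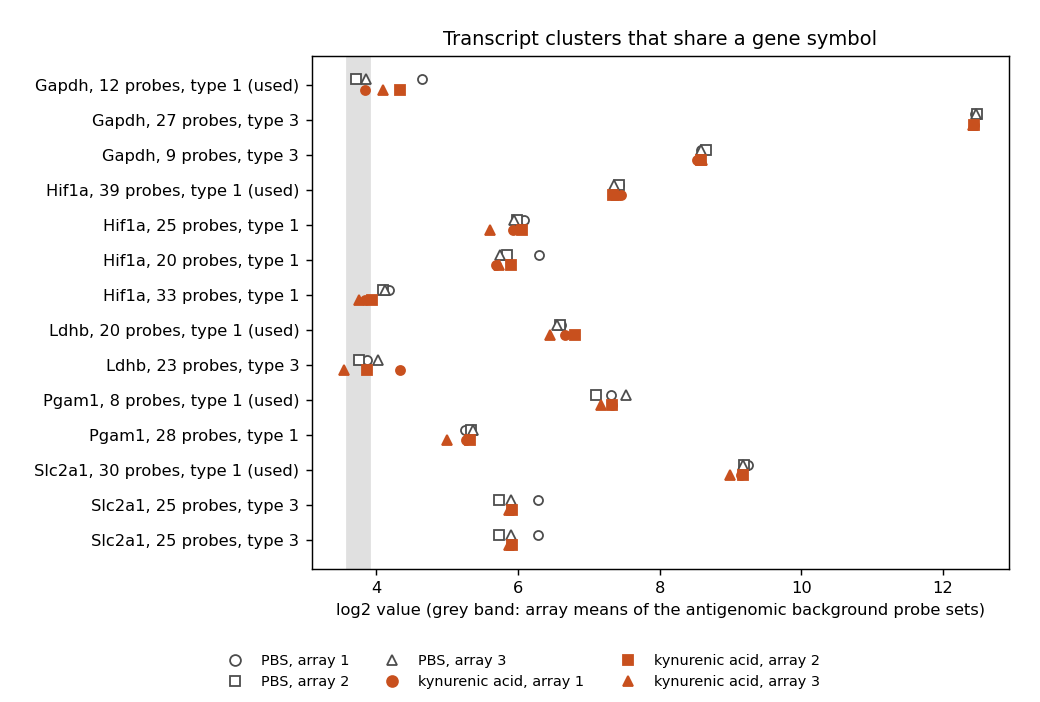
Log2 values of the 6 arrays for every transcript cluster of the 5 symbols that have several, with the number of probes and the cross-hybridisation type (1, specific; 3, also matching other transcripts). The Gapdh cluster that was used lies at the grey band of background means, and the 33-probe Hif1a cluster lies beside it.

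Lactate dehydrogenase genes went to either side of 0. Ldha, the subunit that favours lactate formation, lies on chromosome 7 at 46841475 to 46855627. It read 6.79, 6.86 and 6.75 with PBS and 6.60, 6.77 and 6.49 after kynurenic acid. Arrays 1 and 3 of the treated group were below every PBS array, and array 2 was inside the PBS range. The change was -0.18 (SE 0.091, interval -0.39 to 0.027, limma adjusted p = 0.553). Ldhb, the subunit that favours pyruvate formation, measured 6.59 ± 0.032 and 6.64 ± 0.18 (SD, n = 3 each), and its second treated array was also the highest of the 3.

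Hypoxia-inducible factors and their sensors were measured by 4 genes. Epas1, which encodes HIF-2α, lies on chromosome 17 at 86753864 to 86833410 (plus strand). It read 6.98, 6.78 and 7.05 with PBS and 7.31, 7.06 and 7.17 after kynurenic acid. All 3 kynurenic acid arrays were above all PBS arrays, with 7.06 and 7.05 as the nearest pair. The change of 0.24, or 1.18-fold, had an interval from 0.015 to 0.47, an unadjusted limma p of 0.0390 and an adjusted p of 0.506. It was 0.17 without PBS array 2 and 0.30 without kynurenic acid array 2. Epas1 is also known as an endothelial transcript, and the list mean of the 8 endothelial markers was 4.0 to 4.08 on the PBS arrays and 4.16 to 4.17 on the kynurenic acid arrays, with Cdh5 (VE-cadherin) at 5.08 and 5.59. Of the 8, 0 passed limma over all genes and 1 (Cdh5) had an unadjusted p below 0.05. Changes were above 0 for 5 of the 8 and below 0 for 3 (Flt1, Tek and Tie1). Background means were also higher after treatment, at 3.58 to 3.76 with PBS and 3.76 to 3.91 with kynurenic acid. Only 3 to 6 of the 8 markers read above the background mean of an array. The part of these markers in the Epas1 value was not tested.

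Hif1a, the other oxygen-regulated factor, read 7.42, 7.42 and 7.36 with PBS and 7.45, 7.34 and 7.38 after kynurenic acid in the 39-probe cluster over the gene. The change was -0.010 with an interval from -0.18 to 0.16. Its direction turned to 0.042 after cyclic loess. Other clusters under the symbol gave -0.29, -0.19 and -0.14. The first of these, with 33 probes on the same strand, begins 1450 bases past the RefSeq end of the gene and read 4.18, 4.10 and 4.12 with PBS and 3.84, 3.94 and 3.76 after kynurenic acid. Its groups did not overlap, but 2 of the 3 treated arrays were below their background means, so the size of that difference is not measured above background. The second, with 20 probes, lies on the opposite strand. Egln3, the hydroxylase gene that HIF itself induces, read 10.19, 10.37 and 10.17 with PBS and 10.25, 10.38 and 10.37 after kynurenic acid, a change of 0.090 (limma adjusted p = 0.751). PBS array 2 was level with the treated arrays 2 and 3. Egln1, the main oxygen sensor, had a change of 0.053.

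The 4 hypoxia-responsive genes had changes below 0 and between -0.11 and -0.070, each with an interval that includes 0. Vegfa, the endothelial growth factor gene, read 10.31, 10.28 and 10.29 with PBS and 10.22, 10.27 and 10.18 after kynurenic acid. Its groups did not overlap, with 10.27 and 10.28 as the nearest pair, and the change was -0.070 (interval -0.23 to 0.095, limma adjusted p = 0.770). Bnip3, a mitophagy receptor, read 9.46, 9.67 and 9.61 with PBS and 9.34, 9.68 and 9.46 after kynurenic acid. Ankrd37, an ankyrin repeat gene used as a hypoxia marker, read 6.34, 6.19 and 6.25 with PBS and 6.07, 6.24 and 6.14 after kynurenic acid. For the vasodilator peptide adrenomedullin, Adm read 9.47, 9.50 and 9.37 with PBS and 9.31, 9.44 and 9.30 after kynurenic acid. In all 4 genes the second kynurenic acid array was the highest of the 3 and lay inside or above the PBS range, apart from Vegfa, where it was just below. The limma adjusted p-values were 0.806 for Bnip3, 0.675 for Ankrd37 and 0.710 for Adm.

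**Figure D3:**
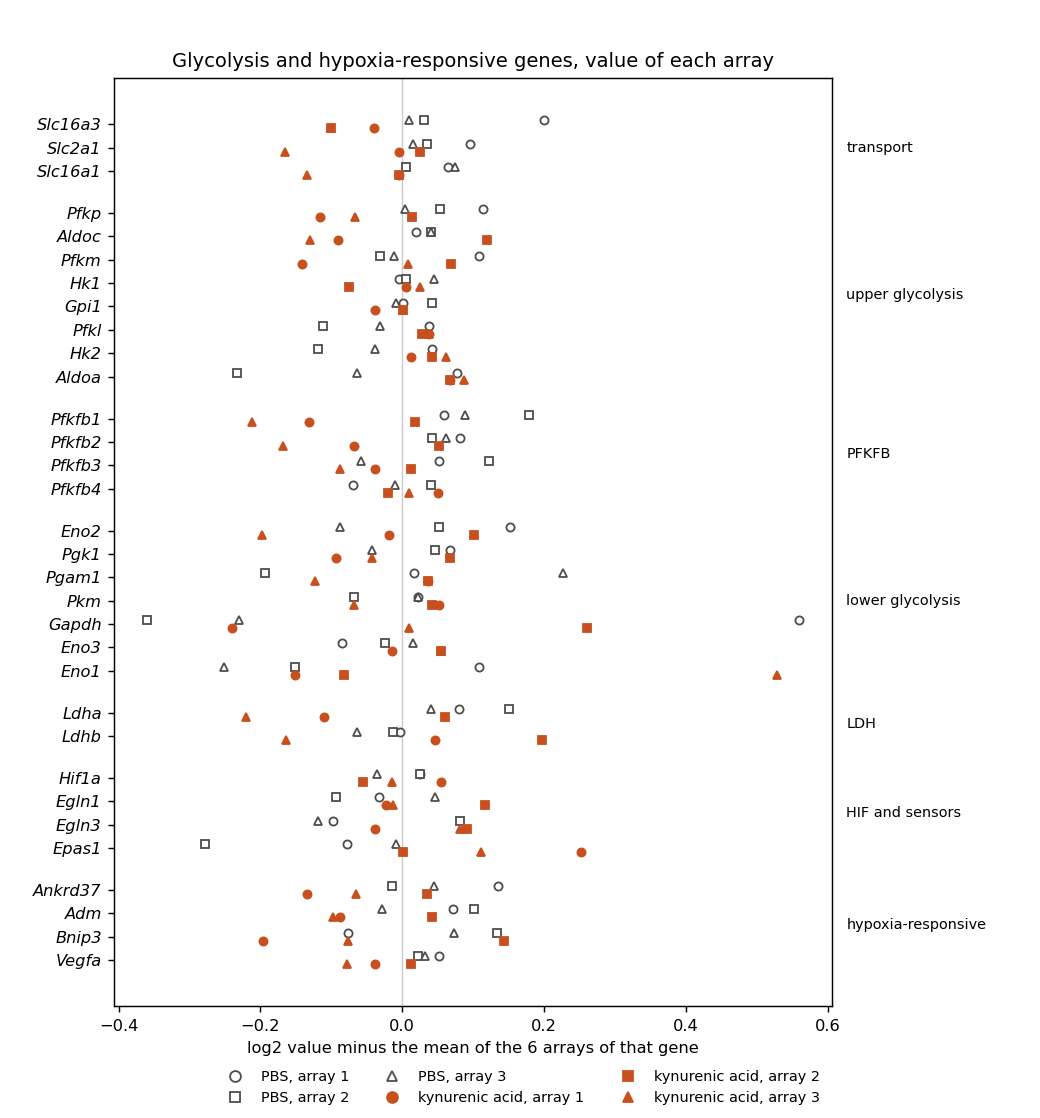
Log2 value of each array minus the mean of the 6 arrays of that gene, for the 32 genes by role (open symbols, PBS; filled symbols, kynurenic acid; circle, square and triangle, arrays 1, 2 and 3). Groups overlap in 27 of the 32 genes, and in all 4 hypoxia-responsive genes the filled square lies right of the other filled symbols.

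The arrays of a group differed from each other about as much as the groups did. Kynurenic acid array 2 was the highest of its group in 18 of the 32 genes (56.3%), where it was so in 32.9% of all genes. For the 35 other hypoxia and HIF pathway genes the count was 18 (51.4%), and for the 24 other glycolysis genes 7 (29.2%). The PBS group was uneven too: PBS array 1 was its highest in 15 of the 32 genes (46.9%), against 31.0% of all genes. It was so in 15 of the 35 other hypoxia genes (42.9%) and 8 of the 24 other glycolysis genes (33.3%). The median deviation of the 32 genes from their 6-array means was 0.052, 0.023 and -0.0025 on the PBS arrays and -0.038, 0.039 and -0.066 on the kynurenic acid arrays. Kynurenic acid array 2 thus lay among the PBS arrays for these genes. Without it the median log2 change of the set was -0.090 in place of -0.038, and still 0 genes passed. That array reads highest in most of the set, so a lower median without it follows largely by construction. At an unadjusted limma p below 0.05 stood 3 of 32, against 3570 of all 27365. With any other single array left out it was 0 to 2 of 32, against 1910 to 2502 of all 27365. Without replicate 2 of both groups the median was also -0.090. Without PBS array 1 it was -0.027.

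**Figure D4:**
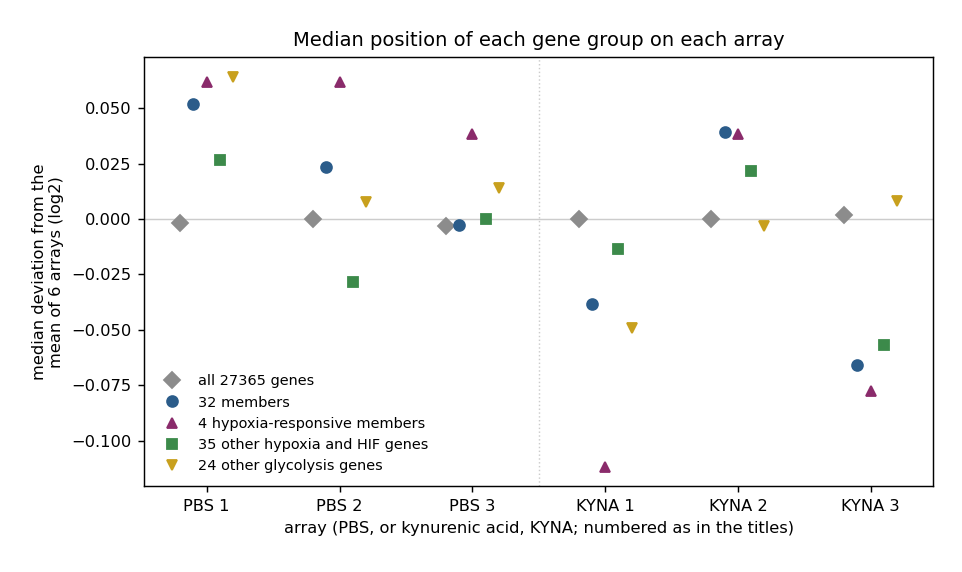
Median deviation (log2) of each gene group from its 6-array means on each array, for PBS arrays and kynurenic acid (KYNA) arrays. The 32 genes stand at 0.052, 0.023 and -0.0025 on PBS arrays 1, 2 and 3. They stand at 0.039 on kynurenic acid array 2 and at -0.038 and -0.066 on arrays 1 and 3, while all genes stay near 0 throughout.

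Other genes of the same pathways were read from a pair of textbook lists. Of 24 further glycolysis and gluconeogenesis genes, 0 passed over all genes, 13 were below 0 and 10 above, with a median change of -0.043. At an unadjusted p below 0.05 stood 3 of the 24, against 9.69% of all genes. Bpgm, which makes 2,3-bisphosphoglycerate, averaged 4.98 ± 0.19 in PBS and 4.55 ± 0.056 in treated cells (SD, n = 3 each), and its change was -0.43 (limma adjusted p = 0.472), larger in size than that of any of the 32. Galm, the galactose mutarotase, had -0.18 and Fbp2, the muscle fructose bisphosphatase, 0.29 (limma adjusted p = 0.509 and 0.479). Of 35 further hypoxia and HIF pathway genes, 0 passed, 19 were below 0 and 14 above, with a median of -0.017. An unadjusted p below 0.05 was reached by 2 of the 35. Hif1an, the asparaginyl hydroxylase that restrains HIF, had -0.27, and Arnt2, a partner of HIF factors known from neurons, had 0.24 at levels near background (limma adjusted p = 0.511 and 0.475). The lists share Pdk1 and Slc2a3.

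Promoter windows were searched for the core letters to which HIF binds, ACGTG or GCGTG, on both strands. The windows are RefSeq sequences of build GRCm38.p6, 300 bases each, from 250 before to 50 after a gene's start. At the palindrome CACGTG matches on both strands overlap. Windows were found for 32 of the 33 genes (Tpi1 included, Epas1 not), and 29 (90.6%) had a match in at least 1 window. The same held for 46.7% of 27025 genes in the table and for 64.8% of 10107 genes that read above the background mean on all 6 arrays. Counted by window, which does not favour genes with several, a match stood in 39 of 50 windows of the set (78%) and in 14380 of 32851 windows in all (43.8%). The median GC content was 59.8% for windows of the set, 52.7% for all windows and 60.3% for windows of those brighter genes. The shares by window, 78% and 43.8%, thus come from windows of unlike GC content. No share by window was computed for the brighter genes. A match is a description of letters and says nothing of binding in these cells. The first listed windows of the 4 hypoxia-responsive genes, which shared the array pattern above, and of Ldha are shown with the matches in capitals. They lie at chr7:110627407-110627706 (plus strand), chr8:45999801-46000100 (minus), chr7:138909457-138909756 (minus), chr17:46032328-46032627 (minus) and chr7:46845554-46845853 (plus), and each reads 5′ to 3′ along the gene.
Adm: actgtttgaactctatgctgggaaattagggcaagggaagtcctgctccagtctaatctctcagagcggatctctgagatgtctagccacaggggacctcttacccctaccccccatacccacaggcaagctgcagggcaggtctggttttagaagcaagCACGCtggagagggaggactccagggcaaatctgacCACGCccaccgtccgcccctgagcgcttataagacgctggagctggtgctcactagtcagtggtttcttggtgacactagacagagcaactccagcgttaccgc
Ankrd37: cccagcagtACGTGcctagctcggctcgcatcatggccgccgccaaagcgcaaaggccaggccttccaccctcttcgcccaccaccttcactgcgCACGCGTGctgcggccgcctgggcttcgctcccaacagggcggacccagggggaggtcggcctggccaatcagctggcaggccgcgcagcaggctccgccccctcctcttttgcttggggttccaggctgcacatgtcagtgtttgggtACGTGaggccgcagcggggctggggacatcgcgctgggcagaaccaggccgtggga
Bnip3: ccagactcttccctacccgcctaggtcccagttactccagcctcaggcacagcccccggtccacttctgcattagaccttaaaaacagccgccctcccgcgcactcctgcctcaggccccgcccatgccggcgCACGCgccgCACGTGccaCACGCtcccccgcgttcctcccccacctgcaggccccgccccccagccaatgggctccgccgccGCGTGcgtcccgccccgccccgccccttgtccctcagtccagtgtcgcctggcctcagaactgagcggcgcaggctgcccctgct
Vegfa: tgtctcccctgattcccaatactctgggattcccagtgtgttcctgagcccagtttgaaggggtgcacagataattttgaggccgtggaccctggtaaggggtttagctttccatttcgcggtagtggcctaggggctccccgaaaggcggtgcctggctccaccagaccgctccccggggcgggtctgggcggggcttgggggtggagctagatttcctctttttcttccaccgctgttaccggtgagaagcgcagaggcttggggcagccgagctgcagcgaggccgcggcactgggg
Ldha: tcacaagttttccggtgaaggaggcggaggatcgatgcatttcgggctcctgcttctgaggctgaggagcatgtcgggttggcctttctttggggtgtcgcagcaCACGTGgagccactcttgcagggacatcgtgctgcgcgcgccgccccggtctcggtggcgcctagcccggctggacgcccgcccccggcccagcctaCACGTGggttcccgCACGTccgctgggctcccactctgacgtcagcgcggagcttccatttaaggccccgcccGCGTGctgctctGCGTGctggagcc
The Ldha window held 7 matches, the Bnip3 window 5, the Ankrd37 window 4 and the Adm window 2. The Vegfa window held 0, and a further Vegfa window held 2. Changes of these 5 genes lay between -0.18 and -0.070, and none passed.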

How the data were processed

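RNA of 6 samples (3 PBS, 3 kynurenic acid, grouped by title) was hybridised to Affymetrix MoGene 2.0 ST arrays. The authors deposited log2 values from RMA, run in Affymetrix Expression Console 1.41, per the submitters' processing notes and the file headers. RMA equalises probe values between arrays before they are summarised, so a shift of most genes would be largely removed; array medians of the genes tested still ran from 4.22 to 4.29. Annotation is NetAffx build 34 on mm10, per the file headers. Array values came from the deposited value table. The annotated table's group mean intensity columns, made by the authors, differed from means recomputed from it by at most 0.0138% over 41345 clusters, which ties the rows of both. Its 6 array columns were not used. Its p-value and q-value columns are the authors' Student's t-test results, per the file headers; the q method is not stated there.

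A single cluster per symbol was kept (the brightest type 1, otherwise the brightest), and 27365 genes were fitted with limma 3.58.1 in R 4.3.3 without covariates, two-sided, with Benjamini-Hochberg adjustment. The number of arrays limits the precision. The labels do not say whether replicate numbers pair the arrays, so the fit was unpaired and a replicate block was an alternative. Same-numbered arrays correlated at 0.037, 0.065 and 0.093 in their deviations from group means, and differently numbered arrays at -0.070 to 0.0038. Pairing by number is therefore not excluded. The fit was tested on simulated data. The members and lists were chosen with earlier results of these data known. All genes of the set are named. Array values are given for those at an unadjusted p below 0.05 and 12 set by role. Those of Aldoa, Eno1 and Gapdh, and of clusters not used in the fit, were added after their values were seen. From the 2 wider lists the genes at an unadjusted p below 0.05 are named. Alternatives were the brightest cluster per symbol, every cluster as its own row, a filter at the 40th percentile, median centring, cyclic loess, an intensity trend, a robust prior, the methods' t-test, a replicate block and arrays left out.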

Additional observations from a re-analysis of the deposited data

How the results depend on the processing

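Counts past the test were 0 in every alternative run, for all genes, the 32 genes and both wider lists. Over the 32 genes the smallest adjusted limma p under any alternative was 0.284 (Pfkfb1, without kynurenic acid replicate 2). For Pfkfb1 adjusted p ran from 0.284 to 0.753 and for Epas1 from 0.315 to 0.726. The methods' t-test gave 2156 genes at an unadjusted p below 0.05 and 0 after Benjamini-Hochberg, and limma 2653 and 0. With the replicate block 0 genes passed (2893 at an unadjusted p below 0.05), and no call changed. Its median for the set is -0.038 by construction, since a balanced block leaves each group difference as it was. Leaving out single arrays gave medians from -0.090 to -0.024 for the set, -0.063 to 0.005 for the other glycolysis genes and -0.058 to 0.0033 for the other hypoxia genes. Without replicate 2 of both groups the medians were -0.090 for the set and -0.060 for the other hypoxia genes. Median centring gave -0.075 for the set, -0.080 for the other glycolysis genes and -0.053 for the other hypoxia genes, with all genes at -0.03. Cyclic loess gave -0.014 for the set, -0.037 for the other glycolysis genes and 0.012 for the other hypoxia genes, with all genes at 0.0011.

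With arrays left out, 18 of 224 single-gene values had the opposite sign, and under the other alternatives 8 of 288. Of those other alternatives, only the brightest cluster, median centring and cyclic loess could alter a log2 change. The rest leave it unchanged by construction, so the 288 include values that could not turn. The cause of the turns was not tested. Median centring gave -0.01 for Pfkfb4, -0.017 for Gapdh and -0.020 for Pkm. Cyclic loess gave 0.021 for Hk1, 0.019 for Pgam1, 0.042 for Hif1a and -0.024 for Gapdh, and the brightest cluster gave -0.033 for Gapdh. With single arrays left out the change ran from -0.088 to 0.017 for Pfkm, -0.0017 to 0.053 for Pfkfb4, -0.155 to 0.305 for Gapdh, -0.14 to 0.072 for Pgam1, -0.018 to 0.32 for Eno1, -0.15 to 0.0033 for Eno2, -0.013 to 0.055 for Pkm, -0.032 to 0.15 for Ldhb and -0.040 to 0.015 for Hif1a. Without replicate 2 of both groups Gapdh had -0.28, Pkm -0.030, Ldhb -0.025, Hif1a 0.025 and Egln1 -0.025. Values near background, such as that of the specific Gapdh probes, limit what the set can show.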
